A study of Homo sapiens with 32 samples.

Results

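RNA-Seq of LNCaP cells was used to compare 2 ligands of the ERBB receptor family directly, 4 hours after each was added. The comparison set the 4 libraries labeled EGF for 4 hours against the 4 labeled NRG-1 for 4 hours, 8 of the 32 libraries of the series, and members were taken from the labels for ligand, dose, and time. LNCaP is an established prostate cancer line, derived from a metastasis in a lymph node, that retains androgen-responsive, luminal features. All 8 cultures were moved from medium with fetal bovine serum (FBS) to medium with charcoal-stripped serum (CSS), which holds little steroid hormone, a day before the ligand was added, and each ligand was given at 100 ng/mL. The doses were therefore equal by mass, and molar doses were not given in the sources used here. The CSS group, 4 libraries from the same medium with no ligand, served as the background for both ligands, so the values against CSS share their control libraries. Each group held 2 libraries in each of 2 batches; the labels number the batches and do not say how they differ. The data therefore describe 1 cell line in hormone-depleted medium at 1 dose of each ligand.

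EGF binds EGFR, whereas NRG-1 binds ERBB3 and ERBB4. ERBB2 (HER2) has no soluble ligand of its own and pairs with the ligand-bound receptors. Both routes feed the RAS-ERK and PI3K-AKT cascades, and ERK signaling induces immediate early genes, which are transcribed within minutes and usually encode short-lived mRNAs. Many of their products are transcription factors, and others are phosphatases and mRNA decay factors that limit the same signal.

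Library totals were 69089114 to 92397749 counts with EGF and 65936153 to 77598674 with NRG-1. Levels are given as CPM, each gene's counts as a share of the library total rescaled by edgeR's library factors. All 10 luminal prostate markers were detected, and their summed level was 4910 to 5367 CPM with EGF and 4598 to 5186 CPM with NRG-1. Of 16 markers of fibroblasts, leukocytes, endothelium, basal and neuroendocrine cells, and hepatocytes, 8 passed the filter on low counts. In the 8 libraries the fibroblast collagens *COL1A1* and *COL3A1* ranged from 8.11 to 14.3 CPM and from 1.15 to 3.75 CPM, and the endothelial *VWF* from 3.79 to 7.62 CPM, whereas *COL1A2*, *CD3E*, and *CDH5* had 0 counts in each. The adjusted *P* value between the ligands was 0.991 for *COL1A1*, 0.747 for *COL3A1*, and 0.766 for *VWF*. The summed level of the 16 was 33.1 to 36.2 CPM with EGF and 26.6 to 32.6 CPM with NRG-1. Among them, 1 differed, *CD68*, a lysosomal membrane protein listed as a leukocyte marker (mean 14.4 CPM with EGF and 9.16 CPM with NRG-1, adjusted *P* = 0.00472). The part of the *CD68* shift in the results was not tested. *PTPRC*, another leukocyte marker, had at most 6 counts in any of the 8 libraries and 0 in 1 of them.

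Of 16995 genes tested, 29 (0.171%) were differentially expressed genes (DEGs) between the ligands, with an adjusted *P* value below 0.05 in edgeR's quasi-likelihood test and a fold change beyond 2. EGF was higher for 25 (0.147%) and NRG-1 for 4 (0.0235%). The EGF-higher genes included all 4 *EGR* transcription factors, the AP-1 subunits *FOS* and *JUNB*, the mRNA decay factor *ZFP36*, the ERK phosphatase *DUSP2*, and the matrix metalloproteinases *MMP1*, *MMP10*, and *MMP12*. Among those named, *FOS* and *MMP12* lost the adjusted *P* threshold when single libraries were left out. At any fold, 282 genes (1.66%) passed the adjusted *P* threshold, 212 with EGF higher (1.25%) and 70 with NRG-1 higher (0.412%), and with a replicate block the number was 810. In all, 21 of the 29 DEGs had libraries that did not overlap between the ligands, 18 with EGF higher and 3 with NRG-1 higher. Over all genes, 2.78% had every EGF library above every NRG-1 library and 1.82% had the reverse. The DEGs were chosen from these same libraries, so their count is not independent of that choice. Bulk RNA cannot tell a change in the RNA per cell from a change in the share of cells that respond.

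**Figure D1:**
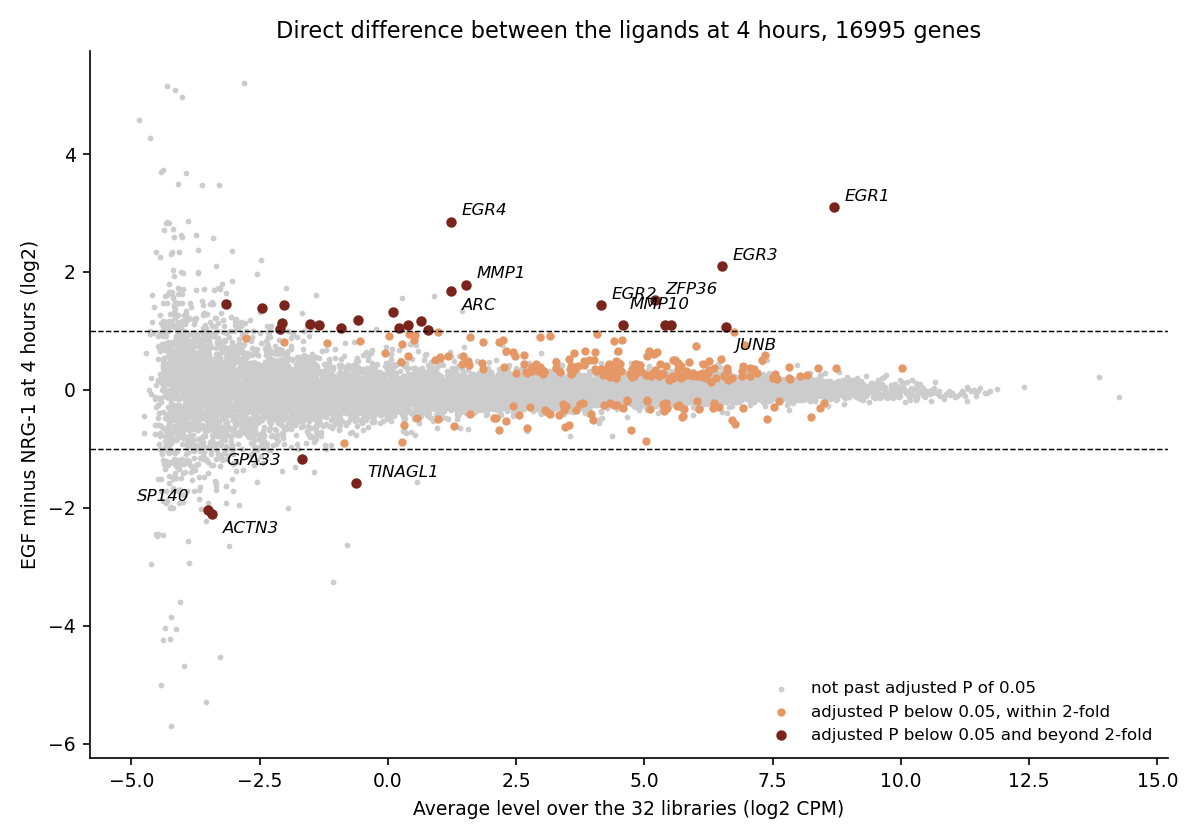
Direct difference between the ligands (vertical axis, EGF minus NRG-1, log2) against the average level over the 32 libraries (horizontal axis, log2 CPM), 1 point per gene, for 16995 genes. Dark points are the 29 DEGs and orange points are genes past the adjusted *P* threshold within 2-fold; *EGR1* combines a high level with a difference of 3.10, and 18 of the DEGs have an average log2 CPM under 1.

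All 29 DEGs were also DEGs against CSS in the EGF comparison (background 9.56% of genes), and 19 were in the NRG-1 comparison (7.41%). The comparisons with CSS use the same ligand libraries from which the DEGs were chosen, so these counts describe where the DEGs lay and are not independent of that choice. Of the 25 EGF-higher genes, 25 were called higher than CSS with EGF (5.86% of all genes) and 18 with NRG-1 (4.87%), so that most were raised by both ligands. The 5 not past the adjusted *P* threshold against CSS with NRG-1 were *SFRP1*, *SHISA2*, *SHISA3*, *TNS3*, and *FAIM2*. The 4 NRG-1-higher genes were each called lower than CSS with EGF (3.7% of all genes), and 1 of them, *TINAGL1*, was also called lower with NRG-1 (2.54%). Of the 212 genes higher with EGF at any fold, 202 lay above CSS with EGF at that threshold (24.6% of all genes). Of the 70 genes higher with NRG-1 at any fold, 60 lay below CSS with EGF (24.6% of all genes), whereas with NRG-1 48 lay below CSS (21%) and 11 above it (21.6%).

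The *EGR* genes encode zinc finger transcription factors that are textbook immediate early genes. *EGR1* showed the largest difference among the 29 DEGs. It stood at 632, 656, 490.4, and 474 CPM in the EGF libraries and at 59.8, 59.3, 79.2, and 64.6 CPM in the NRG-1 libraries, against 1.16 to 1.37 CPM in CSS. The lowest EGF library thus lay far above the highest NRG-1 library, and both ligands lay far above CSS. The fitted difference was log2 difference 3.10 ± 0.33 SE, adjusted *P* = 1.12e-06, or 8.58-fold. Per transcript length, *EGR1* had the highest mean level of the 29 DEGs with EGF, at 308 ± 50.3 TPM (length-scaled share of transcripts; SD, n = 4), and averaged 35.5 ± 6.78 TPM with NRG-1.

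*EGR3* stood at 15.5, 16.6, 7.20, and 7.04 CPM with EGF and 3.06, 2.98, 2.26, and 2.13 CPM with NRG-1, against 0.0607 to 0.201 CPM in CSS (log2 difference 2.09 ± 0.13 SE, adjusted *P* = 1.16e-11). *EGR2* stood at 4.94, 5.65, 1.91, and 2.11 CPM with EGF and 0.988, 1.22, 1.18, and 1.53 CPM with NRG-1 (log2 difference 1.44 ± 0.25 SE, adjusted *P* = 0.00112). For both genes the groups did not overlap, and the EGF libraries of batch 1 were the highest. The difference in *EGR2* was 2.27 in batch 1 and 0.58 in batch 2 (log2). *EGR4* was rare, with 75 counts in the 4 EGF libraries together, 9 in the NRG-1 libraries, and 0 in CSS. Its EGF level was at least 6.45-fold higher than CSS, taking 3 counts per CSS library as the floor, and the direct difference was log2 difference 2.85 ± 0.48 SE, adjusted *P* = 0.00104.

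RefSeq promoter windows, 250 bases before to 50 after each start site in GRCh38.p14, were matched by symbol to 21 of the 29 DEGs. Of the motifs searched on both strands, the CArG box, the site of serum response factor, was found in *EGR1* and *EGR2* and in 1.29% of all 35116 windows. In *EGR1* it began 105 and 83 bases before the start, and in *EGR2* 71 bases before it, in 1 of that gene's 3 windows. The 160 bases before the start are shown for these 2 genes because *EGR1* and *EGR2* were among the DEGs and carried this motif, which is in capitals. The *EGR1* stretch is chr5:138465319-138465478 (plus strand) and the *EGR2* stretch is chr10:62816367-62816526 (minus strand); both read 5′ to 3′ on the gene's strand.
EGR1: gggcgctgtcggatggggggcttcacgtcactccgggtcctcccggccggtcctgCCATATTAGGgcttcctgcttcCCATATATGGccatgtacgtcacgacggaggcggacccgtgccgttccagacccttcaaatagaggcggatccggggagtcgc
EGR2: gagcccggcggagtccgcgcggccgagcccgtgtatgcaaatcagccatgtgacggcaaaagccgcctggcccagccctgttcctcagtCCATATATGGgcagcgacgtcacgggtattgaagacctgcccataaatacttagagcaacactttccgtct

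The AP-1 site TGACTCA (or its reverse complement) was found in *FGL2* and *PAEP*, and in 4.95% of all windows. The EGR binding site was found in *DUSP2* (5.77%) and the ETS core CCGGAA or its reverse complement in *TNS3* (17.25%), and the cAMP response element was in none of the 21 (1.85%). The 160 bases before the start are shown for *FGL2* (chr7:77199820-77199979, minus strand), *PAEP* (chr9:135561596-135561755, plus strand), and *DUSP2* (chr2:96145441-96145600, minus strand), with the AP-1 site in capitals in the first 2 and the EGR site in capitals in *DUSP2*. A match describes these letters and does not show that a factor binds there.
FGL2: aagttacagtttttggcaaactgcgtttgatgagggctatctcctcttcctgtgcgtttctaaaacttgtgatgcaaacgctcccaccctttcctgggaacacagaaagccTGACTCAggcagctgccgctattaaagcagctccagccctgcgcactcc
PAEP: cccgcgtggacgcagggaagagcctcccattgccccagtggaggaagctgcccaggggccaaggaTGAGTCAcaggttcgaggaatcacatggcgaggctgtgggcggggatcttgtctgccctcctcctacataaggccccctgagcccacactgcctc
DUSP2: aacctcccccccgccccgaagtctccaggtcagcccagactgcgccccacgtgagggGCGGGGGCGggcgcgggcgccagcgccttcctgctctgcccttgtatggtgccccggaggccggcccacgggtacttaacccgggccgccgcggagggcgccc

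AP-1 is a dimer of FOS and JUN family proteins. *JUNB* stood at 124, 122, 129.5, and 128 CPM with EGF, 51.6, 53.9, 73.9, and 64.7 CPM with NRG-1, and 21.6 to 37.8 CPM in CSS (log2 difference 1.06 ± 0.12 SE, adjusted *P* = 5.40e-06). *FOS* stood at 31.2, 32.3, 35.2, and 34.0 CPM with EGF, a narrow range, and at 8.59, 10.3, 23.1, and 21.5 CPM with NRG-1 (log2 difference 1.11 ± 0.26 SE, adjusted *P* = 0.0194). Neither gene's groups overlapped. For *FOS* both NRG-1 libraries of batch 1 lay below those of batch 2, and its adjusted *P* value lay between 0.0618 and 0.0975 when EGF library 1, EGF library 2, NRG-1 library 1, or NRG-1 library 2 was left out. *FOSB*, by contrast, was low with both ligands at 4 hours, at 0.969, 0.842, 0.806, and 0.857 CPM with EGF and 0.988, 0.702, 1.57, and 1.53 CPM with NRG-1 (log2 difference -0.46, adjusted *P* = 0.589), and the groups overlapped. *JUN* was read after its values were seen and averaged 126.6 CPM with EGF and 108.9 CPM with NRG-1 (adjusted *P* = 0.459).

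Of 26 immediate early transcription factors on the list, 25 were tested and 11 (44.0%) passed the adjusted *P* threshold, each with EGF higher, against 1.25% of all genes. The list median was 0.30 on the log2 scale, and that of all genes was -0.01. The lists were chosen with earlier results of these data known. The shares of this and the other lists are therefore not independent of those results. Besides the 6 DEGs, *IER2*, a nuclear early response protein, stood at 145, 137, 126, and 118 CPM with EGF and 71.0, 71.2, 68.3, and 55.7 CPM with NRG-1 (log2 difference 0.98 ± 0.10 SE, adjusted *P* = 2.19e-07). *KLF10*, a zinc finger repressor, stood at 122, 127, 102, and 115 CPM with EGF and 64.4, 69.0, 68.4, and 72.3 CPM with NRG-1 (log2 difference 0.77 ± 0.08 SE, adjusted *P* = 1.35e-06). The EGF libraries of both genes lay above all NRG-1 libraries. *IER5*, *KLF4*, and *FOSL1*, which the naming rule left out, were the others past the threshold, at log2 differences of 0.32, 0.37, and 0.78.

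ZFP36 binds AU-rich elements in mRNAs of early genes and promotes their decay. *ZFP36* stood at 49.4, 54.9, 44.1, and 42.7 CPM with EGF and 15.4, 14.8, 19.9, and 16.2 CPM with NRG-1, against 8.49 to 9.18 CPM in CSS (log2 difference 1.52 ± 0.10 SE, adjusted *P* = 1.54e-10). NRG-1 thus left it nearer to CSS than to EGF. DUSP2, a nuclear phosphatase of ERK and related kinases, gave the same order, with *DUSP2* at 28.6, 23.2, 24.7, and 22.9 CPM with EGF, 11.9, 11.6, 11.8, and 10.9 CPM with NRG-1, and 6.67 to 8.20 CPM in CSS (log2 difference 1.11 ± 0.13 SE, adjusted *P* = 6.50e-06). For both genes no library of one ligand reached the range of the other.

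Another 3 feedback genes were higher with EGF by less than 2-fold. *DUSP6*, the cytoplasmic ERK phosphatase, stood at 31.7, 30.9, 22.9, and 23.5 CPM with EGF and 14.0, 15.0, 14.4, and 14.7 CPM with NRG-1, against 0.630 to 0.862 CPM in CSS (log2 difference 0.91 ± 0.11 SE, adjusted *P* = 7.39e-06). *DUSP5*, a nuclear ERK phosphatase, had a log2 difference of 0.66 (adjusted *P* = 8.41e-06), and *SPRY2*, an inhibitor of the RAS-ERK cascade, had 0.58 (adjusted *P* = 0.00109). In all 3 the groups did not overlap. Of 20 ERK feedback inhibitors tested, 6 (30.0%) passed with EGF higher and 0 with NRG-1 higher in edgeR, against 1.25% and 0.412% of all genes. The counts were 11 and 1 at an unadjusted *P* value below 0.05, and 7 and 0 in DESeq2, and the list median was 0.22. The sixth gene past the threshold in edgeR was *DUSP10*, outside the naming rule, at 0.50. *DUSP4*, which was read after its values were seen, averaged 26.9 CPM with EGF and 25.7 CPM with NRG-1 (adjusted *P* = 0.858).

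**Figure D2:**
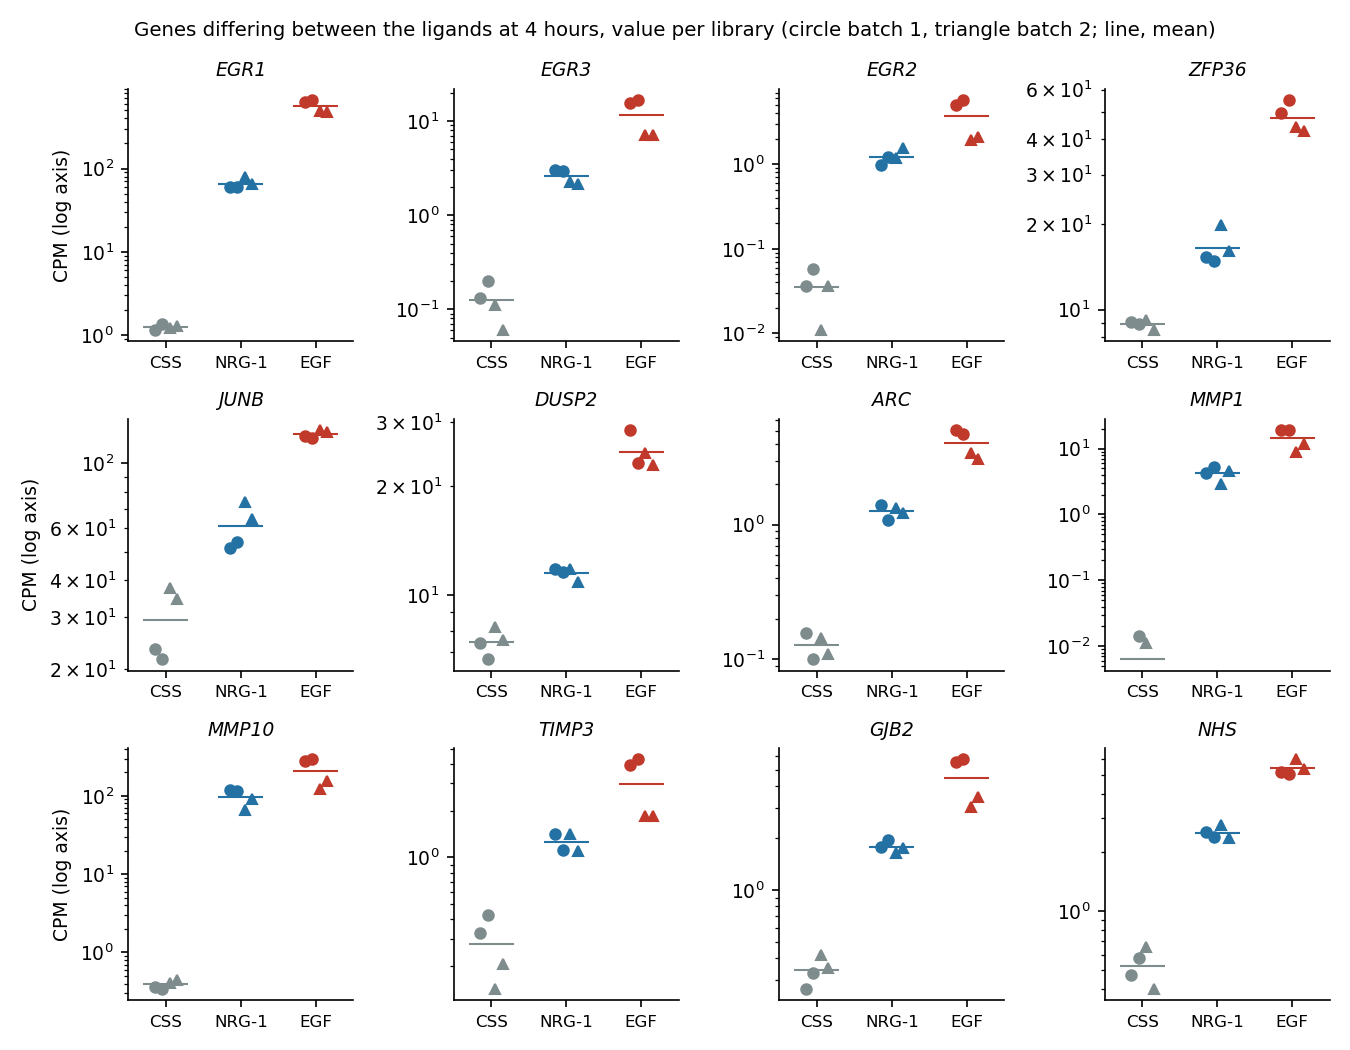
CPM (vertical axes, log scale) of 12 of the 16 DEGs that kept an adjusted *P* value below 0.05 with each library left out, in CSS, NRG-1 at 4 hours, and EGF at 4 hours. Each point is a library, circles are batch 1, triangles are batch 2, and lines are means; CSS libraries of *MMP1* at 0 are not drawn. The EGF points lie above the NRG-1 points in every panel, and the batch 1 circles lie above the batch 2 triangles with EGF for *EGR1*, *EGR2*, *EGR3*, *ZFP36*, *ARC*, *MMP1*, *MMP10*, *TIMP3*, and *GJB2*. *CD4*, *EGR4*, *MUC2*, and *TINAGL1* are not drawn, and the groups of *MUC2* and *TINAGL1* overlapped.

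ARC, a cytoskeleton-associated protein best known from synapses, is another early response gene. *ARC* stood at 5.06, 4.69, 3.40, and 3.09 CPM with EGF and 1.40, 1.08, 1.33, and 1.23 CPM with NRG-1, against 0.10 to 0.157 CPM in CSS (log2 difference 1.68 ± 0.20 SE, adjusted *P* = 8.41e-06). Of the 11 ERK output genes tested, *ARC* and *TNFRSF12A* passed (18.2%, against 1.25% of all genes), both with EGF higher, and the list median was 0.19. *TNFRSF12A*, the TWEAK receptor, was strongly raised by both ligands, at 298, 283, 199.7, and 204 CPM with EGF and 213, 213, 157, and 178 CPM with NRG-1, against 16.0 to 21.9 CPM in CSS. These groups overlapped, the log2 difference was 0.36 (adjusted *P* = 0.0166), and the adjusted *P* value was 0.125 without EGF library 1, 0.0864 without EGF library 2, and 0.0808 without NRG-1 library 3.

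Matrix metalloproteinases cleave collagens and other matrix proteins. *MMP10* (stromelysin 2) was the most abundant of those that were DEGs, at 277, 292, 122, and 154 CPM with EGF and 118, 116, 65.4, and 90.5 CPM with NRG-1, against 0.344 to 0.449 CPM in CSS (log2 difference 1.10 ± 0.20 SE, adjusted *P* = 0.00222). *MMP1* (interstitial collagenase) stood at 19.1, 19.1, 8.78, and 11.6 CPM with EGF and 4.30, 5.20, 2.90, and 4.49 CPM with NRG-1 (log2 difference 1.78 ± 0.23 SE, adjusted *P* = 8.63e-05). CSS held 2 reads of *MMP1* in all, and the ratio to CSS was 2403 with EGF (95% counting interval 665 to 19852) and 690 with NRG-1 (191 to 5704). Both genes were therefore raised by both ligands, and the EGF libraries lay above the NRG-1 libraries.

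*TIMP3*, an inhibitor of these enzymes, moved the same way, at 3.92, 4.26, 1.85, and 1.85 CPM with EGF and 1.41, 1.12, 1.40, and 1.10 CPM with NRG-1 (log2 difference 1.17 ± 0.20 SE, adjusted *P* = 0.000903). Its difference was 1.69 in batch 1 and 0.57 in batch 2 (log2). *MMP13* and *ADAMTS1*, a secreted protease that was abundant in CSS too (735 to 880.1 CPM), had log2 differences of 0.89 (adjusted *P* = 0.0364) and 0.37 (adjusted *P* = 0.0387). Both lost the threshold without 1 library: *MMP13* without any of EGF libraries 1 and 2 and NRG-1 libraries 2, 3, and 4 (adjusted *P* up to 0.25), and *ADAMTS1* without any EGF library or NRG-1 library 2 or 4 (up to 0.147). Of 15 matrix proteases and inhibitors tested, 5 (33.3%) passed with EGF higher and 0 with NRG-1 higher in edgeR, against 1.25% and 0.412% of all genes. The counts were 6 and 0 at an unadjusted *P* value below 0.05, and 5 and 0 in DESeq2, and the list median was 0.33.

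Several EGF-higher DEGs encode membrane or structural proteins. *GJB2*, the gap junction protein connexin 26, stood at 5.56, 5.73, 3.03, and 3.46 CPM with EGF and 1.77, 1.95, 1.63, and 1.76 CPM with NRG-1 (log2 difference 1.32 ± 0.20 SE, adjusted *P* = 0.000148). *NHS*, a regulator of actin and cell shape, stood at 5.17, 5.07, 5.99, and 5.37 CPM with EGF and 2.54, 2.39, 2.76, and 2.37 CPM with NRG-1 (log2 difference 1.10 ± 0.15 SE, adjusted *P* = 2.81e-05). *CD4*, a T cell co-receptor, stood at 4.39, 4.66, 3.37, and 3.51 CPM with EGF and 1.94, 1.67, 2.14, and 2.10 CPM with NRG-1 (log2 difference 1.02 ± 0.16 SE, adjusted *P* = 0.000428). Of the leukocyte markers, *CD3E*, which defines T cells, had no count, *PTPRC* had at most 6 counts per library, and *CD68* was higher with EGF. *MUC2*, a secreted mucin, stood at 4.56, 5.08, 2.61, and 1.99 CPM with EGF and 2.08, 2.15, 1.33, and 0.704 CPM with NRG-1 (log2 difference 1.18 ± 0.20 SE, adjusted *P* = 0.000994). The groups overlapped for *MUC2*, where the highest NRG-1 library was above the lowest EGF library, and did not for the other 3.

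A further 13 DEGs lost the adjusted *P* threshold when 1 library was left out, and apart from *FOS* each had an average log2 CPM of at most 0.22. *PAEP*, a lipocalin also called glycodelin, stood at 1.21, 1.40, 0.919, and 1.07 CPM with EGF and 0.454, 0.393, 0.443, and 0.429 CPM with NRG-1 (log2 difference 1.43 ± 0.31 SE, adjusted *P* = 0.0101), and its adjusted *P* value was 0.0533 without EGF library 1 and 0.0786 without EGF library 2. *ELOVL2*, a fatty acid elongase, stood at 4.25, 4.55, 2.88, and 2.20 CPM with EGF and 1.56, 1.32, 2.31, and 1.64 CPM with NRG-1, with overlap (log2 difference 1.05 ± 0.24 SE, adjusted *P* = 0.0166); it lost the threshold without EGF library 1 or 2 or NRG-1 library 2 or 4 (0.0557 to 0.110). *FGL2*, a fibrinogen-like protein, had 275 counts with EGF and 114 with NRG-1 in total, and *MMP12*, macrophage elastase, had 127 and 39. The rest of the EGF-higher group were *SFRP1*, a secreted WNT antagonist, *SHISA2*, *SHISA3*, the focal adhesion protein *TNS3*, and *FAIM2*, an inhibitor of FAS signaling, with mean levels under 1 CPM with both ligands. With all libraries their adjusted *P* values were 0.0284 for *SFRP1*, 0.0465 for *SHISA2*, 0.0457 for *SHISA3*, 0.0235 for *TNS3*, and 0.0413 for *FAIM2*. Without EGF library 2 the adjusted *P* value was 0.158 for *FGL2*, 0.279 for *SHISA2*, 0.113 for *TNS3*, and 0.269 for *MMP12*. It was 0.156 for *SFRP1* without EGF library 1, 0.182 for *SHISA3* without NRG-1 library 3, and 0.161 for *FAIM2* without NRG-1 library 4. These were the highest values of each gene with 1 library left out, and each gene also lost the threshold without other single libraries. *MMP12* lost it without any library but EGF library 4, and *SHISA3* without any but NRG-1 library 2.

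The 4 NRG-1-higher DEGs were all scarce. *TINAGL1*, a matrix protein of the tubulointerstitial nephritis antigen family, stood at 0.0285, 0.0228, 0.176, and 0.0766 CPM with EGF and 0.200, 0.140, 0.260, and 0.322 CPM with NRG-1, against 0.738 to 0.960 CPM in CSS (log2 difference -1.58 ± 0.32 SE, adjusted *P* = 0.00729). The highest EGF library overlapped the NRG-1 range, and both ligands lay below CSS. *GPA33*, a cell surface antigen of intestinal epithelium, had 28 counts with EGF and 58 with NRG-1 in total (log2 difference -1.16 ± 0.30 SE, adjusted *P* = 0.0355), *SP140*, a nuclear body protein of lymphoid cells, had 6 and 24 (log2 difference -2.03 ± 0.51 SE, adjusted *P* = 0.035), and *ACTN3*, a muscle actinin, had 6 and 25 (log2 difference -2.11 ± 0.49 SE, adjusted *P* = 0.0189). At these counts the groups of the 3 did not overlap, but the adjusted *P* values rose to 0.263 for *GPA33* and 0.181 for *SP140* without EGF library 2 and to 0.172 for *ACTN3* without EGF library 3. Each of the 3 also lost the threshold without other single libraries.

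Abundant genes higher with NRG-1 differed by less than 2-fold. *KLHL24*, an adaptor of a cullin ubiquitin ligase, stood at 5.27, 5.90, 10.2, and 11.1 CPM with EGF and 8.79, 10.1, 18.7, and 22.6 CPM with NRG-1, against 36.2 to 57.3 CPM in CSS (log2 difference -0.87 ± 0.11 SE, adjusted *P* = 2.67e-05). The ranges of the ligands overlapped over both batches and not within either, where the difference was -0.75 in batch 1 and -0.94 in batch 2 (log2). *TXNIP*, an arrestin-like protein that limits glucose uptake, stood at 236, 251, 225, and 218 CPM with EGF and 344, 343, 294, and 300.3 CPM with NRG-1, against 388 to 547 CPM in CSS (log2 difference -0.46 ± 0.07 SE, adjusted *P* = 0.000316). Both ligands thus lowered *KLHL24* and *TXNIP*, EGF by more.

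Of the 18 FOXO and PI3K-repressed genes tested, 4 (22.2%) passed with NRG-1 higher, against 0.412% of all genes, and 1 with EGF higher, with a list median of -0.13. The other 2 NRG-1-higher members were *YPEL3* at -0.34 (adjusted *P* = 0.00559) and *BMF*, a proapoptotic BCL2 family member, which fell from 15.3 to 17.6 CPM in CSS to 1.35, 1.88, 2.14, and 1.71 CPM with EGF and 2.78, 2.30, 3.21, and 2.54 CPM with NRG-1 (log2 difference -0.60 ± 0.14 SE, adjusted *P* = 0.0177). *BMF* lost the threshold without EGF library 1 (adjusted *P* = 0.124), EGF library 2 (0.0632), or NRG-1 library 3 (0.104). The member that went the other way was *BCL6*, a transcriptional repressor, at 116, 123, 95.8, and 87.7 CPM with EGF and 85.9, 81.3, 75.8, and 59.7 CPM with NRG-1, above its 34.8 to 38.6 CPM in CSS (log2 difference 0.48 ± 0.08 SE, adjusted *P* = 0.000958).

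*INSIG1*, which holds the sterol sensor complex in the endoplasmic reticulum, was raised by NRG-1 and not past the threshold with EGF. It stood at 93.8, 91.2, 87.1, and 87.2 CPM with EGF and 119, 131, 138, and 149 CPM with NRG-1, against 75.9 to 94.5 CPM in CSS, with no overlap between the ligands (log2 difference -0.57 ± 0.08 SE, adjusted *P* = 2.81e-05). It was the 1 of 17 sterol and fatty acid synthesis genes tested to pass (5.88%, against 0.412% of all genes with NRG-1 higher), and the list median was -0.02. *GCNT1*, a branching enzyme of O-glycans, stood at 51.3, 53.9, 45.2, and 43.0 CPM with EGF and 74.3, 68.9, 61.5, and 57.4 CPM with NRG-1 (log2 difference -0.44 ± 0.07 SE, adjusted *P* = 0.000552). *TUFT1* and *PALMD*, a paralemmin-like protein, were higher with NRG-1 by 1.42-fold and 1.60-fold, and *TUFT1* stood near its CSS level with NRG-1 (log2 0.02 against CSS, adjusted *P* = 0.843) and below it with EGF (-0.48).

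Among the EGF family ligands, *HBEGF*, which itself binds EGFR, had the smallest *P* value of the 8 tested and was the 1 that passed (12.5%, against 1.25% of all genes with EGF higher). It stood at 40.5, 39.0, 30.3, and 28.7 CPM with EGF and 21.7, 21.9, 18.3, and 15.9 CPM with NRG-1, against 5.20 to 6.58 CPM in CSS (log2 difference 0.83 ± 0.07 SE, adjusted *P* = 6.68e-08). The list median was -0.05. *KITLG*, the ligand of the receptor KIT, stood at 66.6, 68.9, 30.5, and 34.7 CPM with EGF and 29.7, 30.4, 19.4, and 20.2 CPM with NRG-1 (log2 difference 0.94 ± 0.09 SE, adjusted *P* = 3.32e-07), and its batch 2 libraries were lower with both ligands and in CSS.

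The receptors did not pass the threshold between the ligands. *EGFR* stood at 101, 97.3, 84.1, and 71.4 CPM with EGF and 90.1, 73.4, 71.4, and 51.9 CPM with NRG-1, against 24.4 to 36.6 CPM in CSS (log2 difference 0.31, 95% interval 0.00 to 0.61, adjusted *P* = 0.441; 0.0245 with a replicate block). *ERBB2* averaged 420.5 ± 45.9 CPM with EGF and 393 ± 79.9 CPM with NRG-1 (SD, n = 4; log2 difference 0.11, 95% interval -0.10 to 0.31), and *ERBB3* averaged 156 ± 16.6 CPM and 165 ± 21.7 CPM (-0.09, 95% interval -0.29 to 0.12). *ERBB4* had 15 counts in total with EGF and 8 with NRG-1, a log2 difference of 0.73 (95% interval -0.63 to 2.10). Both ligands raised *EGFR* over CSS (log2 1.54 with EGF and 1.24 with NRG-1) and *ERBB2* (0.71 and 0.60) and lowered *ERBB3* (-0.49 and -0.40). Of 16 receptors and regulators tested, *ERRFI1*, a cytoplasmic inhibitor of EGFR, passed (6.25%, against 1.25% of all genes with EGF higher). Its fitted values were log2 difference 0.29 ± 0.07 SE, adjusted *P* = 0.0367. It lost the threshold without EGF library 1, 2, or 4 or NRG-1 library 1, 2, or 3 (0.0722 to 0.160).

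**Figure D3:**
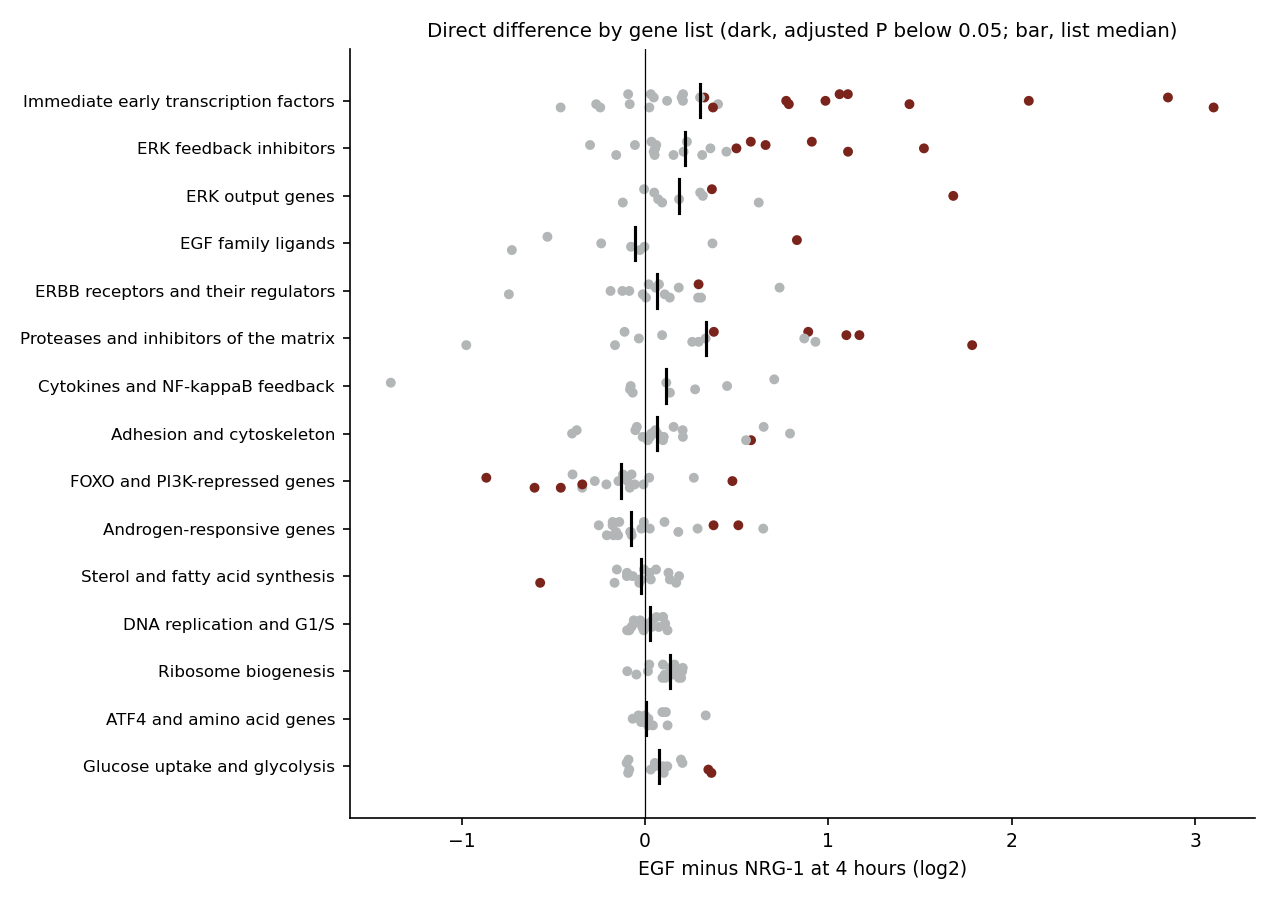
EGF minus NRG-1 at 4 hours (horizontal axis, log2) for the tested members of 15 gene lists, 1 point per gene. Dark points passed the adjusted *P* threshold and bars are list medians; dark points are most numerous among immediate early transcription factors, where 11 of 25 passed, and sit to the left for FOXO and PI3K-repressed genes, where 4 of 5 were higher with NRG-1.

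In the adhesion, androgen-responsive, and glycolysis lists 1 or 2 members passed. Over all genes, 1.25% passed with EGF higher and 0.412% with NRG-1 higher. *ITGA2*, the collagen-binding integrin alpha 2 chain, was the 1 of 19 adhesion and cytoskeleton genes that passed (5.26%), at 141, 141, 88.7, and 89.7 CPM with EGF and 91.4, 85.3, 64.9, and 64.4 CPM with NRG-1, with overlap (log2 difference 0.58 ± 0.10 SE, adjusted *P* = 0.00112). Of 20 androgen-responsive genes, the elongation factor *ELL2* (log2 difference 0.51 ± 0.06 SE, adjusted *P* = 5.40e-06) and *TMPRSS2* (log2 difference 0.37 ± 0.08 SE, adjusted *P* = 0.00971) passed in edgeR with EGF higher (10.0%) and 0 with NRG-1 higher, and the list median was -0.08. The split was not one-sided in other counts, with 2 and 2 in DESeq2 and 4 and 3 at an unadjusted *P* value below 0.05. *ELL2* stood at 64, 63.8, 50.1, and 56.5 CPM with EGF and 41.1, 40.7, 39.2, and 43.3 CPM with NRG-1, against 37.7 to 42.5 CPM in CSS, whereas *TMPRSS2* overlapped and had adjusted *P* values of 0.0575 without EGF library 1 and 0.0822 without EGF library 2. Of 14 genes of glucose uptake and glycolysis, 2 passed with EGF higher (14.3%). *SLC2A1*, the glucose transporter GLUT1, lay below CSS with both ligands (39.8, 42.1, 36.0, and 33.9 CPM with EGF, 33.7, 31.2, 27.5, and 26.0 CPM with NRG-1, and 43.9 to 54.7 CPM in CSS; log2 difference 0.36 ± 0.06 SE, adjusted *P* = 0.000441), and *PFKP*, a phosphofructokinase, lay above it with both (log2 1.24 and 0.90; direct difference 0.35, adjusted *P* = 0.0282, which rose to 0.0570 to 0.111 without any EGF library or NRG-1 library 2 or 4).

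No member passed in edgeR among 9 cytokines and NF-kappaB feedback genes, 18 genes of DNA replication and G1/S, 18 of ribosome biogenesis, and 14 ATF4 and amino acid genes. At an unadjusted *P* value below 0.05 the counts were 1, 0, 7, and 2 in that order, and DESeq2 passed 4 of the ribosome list, each with EGF higher, and 0 of the other 3. The ribosome list had a median of 0.14, with 16 of 18 members above 0, and both ligands raised its median over CSS (0.61 with EGF and 0.50 with NRG-1, log2). Its member with the smallest *P* value, *WDR43*, a component of the small-subunit processome, stood at 135, 134, 135, and 139 CPM with EGF and 117, 116, 125, and 130.0 CPM with NRG-1, with no overlap (log2 difference 0.15 ± 0.04 SE, adjusted *P* = 0.0561; 0.0169 with a replicate block). *LIF*, *CCNE1*, and *SLC3A2* had the smallest *P* values of the other 3 lists, with log2 differences of 0.27, 0.12, and 0.12 (adjusted *P* = 0.427, 0.481, and 0.24; 0.0480 for *SLC3A2* with a replicate block).

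The same contrast at 1 hour also gave 29 DEGs (0.171%), all with EGF higher, and 9 genes were DEGs at both times. The 9 were *EGR2*, *EGR3*, *EGR4*, *ARC*, *MMP1*, *MMP10*, *TIMP3*, *CD4*, and *FGL2*, with 1-hour log2 differences from 1.03 (*EGR2*) to 1.90 (*TIMP3*). For these genes the EGF excess was therefore already present at 1 hour. The *EGR1* difference was not present at 1 hour. *EGR1* stood at 1528, 1605, 1061, and 1070 CPM with EGF and 1626, 1477, 1272, and 1033 CPM with NRG-1 at 1 hour, and the groups overlapped. From there the mean fell to 563 ± 94.1 CPM with EGF and to 65.7 ± 9.28 CPM with NRG-1 at 4 hours (SD, n = 4). The difference at 4 hours minus that at 1 hour was 3.14 ± 0.44 SE on the log2 scale, adjusted *P* = 0.000177.

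That change over time passed the DEG thresholds for 14 genes (0.0824%). The EGF excess was larger at 4 hours for 4 (0.0235%). For the other 10 (0.0588%) the fitted difference was positive at 1 hour and negative at 4 hours. Of these 10, only *TUFT1* passed the adjusted *P* threshold between the ligands at both times. The 4 were *EGR1*, *ZFP36* (1.31 ± 0.14 SE on the log2 scale, adjusted *P* = 4.99e-06), *JUNB* (1.16 ± 0.17 SE on the log2 scale, adjusted *P* = 0.000317), and *DUSP6* (1.05 ± 0.15 SE on the log2 scale, adjusted *P* = 0.000317). At 1 hour *ZFP36* averaged 105 ± 10.6 CPM with EGF and 90.5 ± 14.9 CPM with NRG-1, and *JUNB* averaged 223 ± 8.80 and 239.5 ± 8.73 CPM. *DUSP6* differed in course: with EGF it went from 12.5, 12.5, 13.2, and 14.4 CPM at 1 hour to the higher 4-hour values above, and with NRG-1 it stood at 13.4, 13.7, 15.1, and 15.7 CPM at 1 hour and hardly moved. Of the 29 DEGs at 4 hours, 5 passed the adjusted *P* threshold of this test at any fold, namely *EGR1*, *EGR3*, *ZFP36*, *JUNB*, and *TINAGL1*.

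The 10 genes in the other direction were *FOSB*, *C8orf4*, *CYR61*, *TINAGL1*, *COL13A1*, *ATF3*, *FHL2*, *TUFT1*, *GBP1*, and *DNAJB4*. Of these, only *TINAGL1* and *TUFT1* passed the adjusted *P* threshold between the ligands at 4 hours, and *COL13A1* and *FHL2* passed it at neither time. At 1 hour *TINAGL1* differed by only 0.02 on the log2 scale (adjusted *P* = 0.972 in edgeR). *FOSB* stood at 185, 189.6, 108, and 113 CPM with EGF and 56.6, 55.5, 45.4, and 39.5 CPM with NRG-1 at 1 hour, a clear separation, and was back near CSS with both ligands at 4 hours (-2.05 ± 0.33 SE on the log2 scale, adjusted *P* = 0.000604). *CYR61*, a secreted matricellular protein, averaged 180.2 ± 47.8 CPM with EGF and 73.8 ± 13.0 CPM with NRG-1 at 1 hour (SD, n = 4), and 6.82 ± 0.365 and 8.96 ± 0.672 CPM at 4 hours. *ATF3*, a stress-responsive transcription factor, averaged 674 ± 135 CPM with EGF and 326 ± 42.1 CPM with NRG-1 at 1 hour, and at 4 hours lay below CSS with both. *C8orf4* had -1.68 ± 0.28 SE on the log2 scale, adjusted *P* = 0.000967. In these values *EGR1*, *ZFP36*, *JUNB*, and *DUSP6* showed their EGF excess at 4 hours, and *FOSB*, *CYR61*, and *ATF3* showed it at 1 hour.

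**Figure D4:**
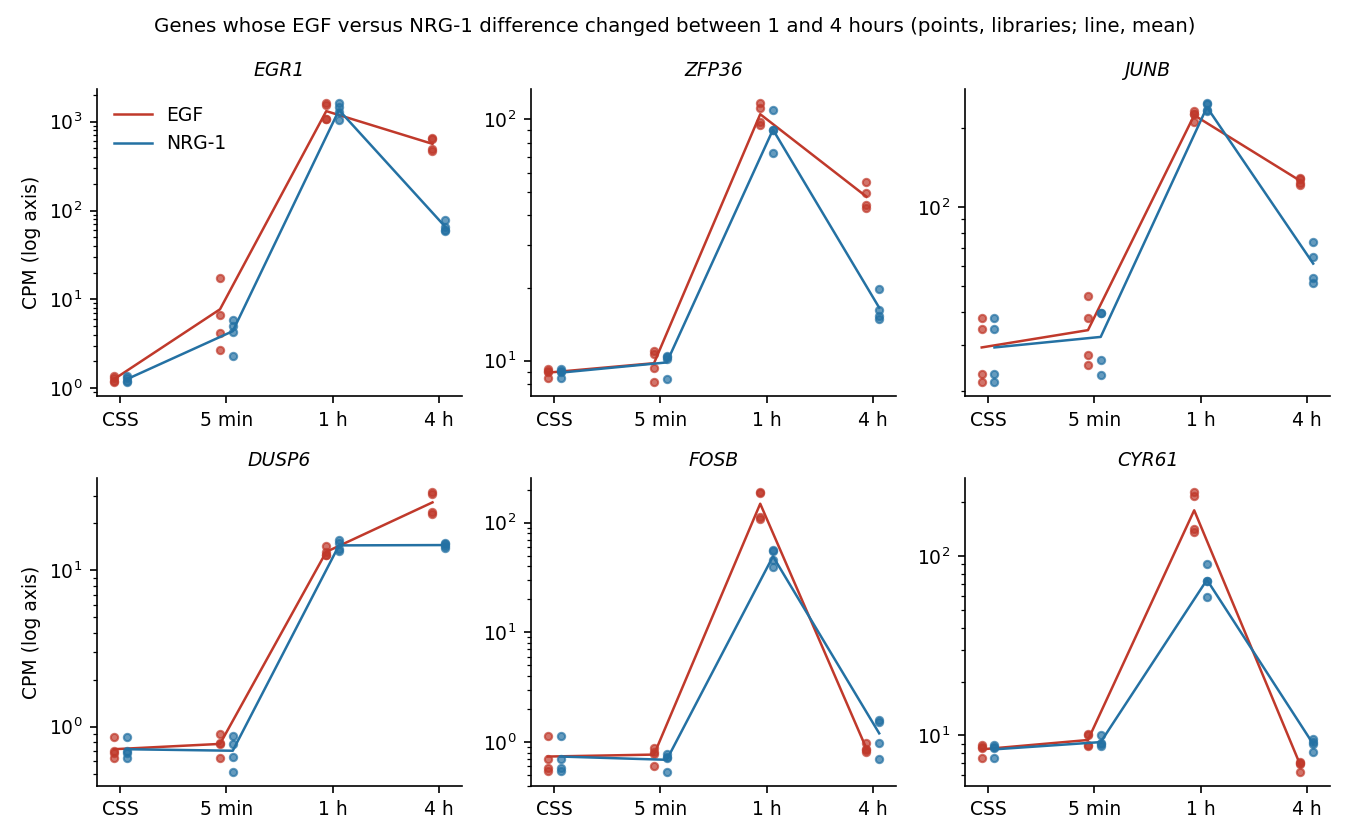
CPM (vertical axes, log scale) of 6 genes in CSS and at 5 minutes, 1 hour, and 4 hours with EGF (red) and NRG-1 (blue); points are libraries, lines join means, and both lines start from the same CSS libraries. *EGR1*, *ZFP36*, *JUNB*, and *DUSP6* separate at 4 hours, whereas *FOSB* and *CYR61* separate at 1 hour.

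Genes induced early were followed as a group. At 1 hour 1.46% of all genes were called higher than CSS with EGF and 0.806% with NRG-1, and 0.265% and 0.182% were called lower. Of the 254 genes called higher with either ligand, 62 (24.4%) passed at 4 hours with EGF higher and 3 (1.18%) with NRG-1 higher, against 1.25% and 0.412% of all genes, and their median direct difference at 4 hours was 0.24. They held 17 of the 25 EGF-higher DEGs. Of 57 genes called lower at 1 hour, 0 passed in edgeR with EGF higher and 2 with NRG-1 higher (3.51%), and their median was -0.21; at an unadjusted *P* value below 0.05 the counts were 0 and 12, and in DESeq2 0 and 3.

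Both batches gave the same direction for all 29 DEGs. The DEGs were chosen from the libraries of both batches together, so this agreement follows in part from that choice. The difference was smaller in batch 2 for 20 of the 25 EGF-higher genes. In a test of the batch difference itself, 0 genes passed the adjusted *P* threshold in edgeR (smallest value 0.0676, for *EGR2*), and 427 genes (2.51%) and 10 of the 29 DEGs had an unadjusted *P* value below 0.05. Within batch 1 alone 22 of the DEGs passed the adjusted *P* threshold and within batch 2 alone 5, namely *EGR3*, *ARC*, *ZFP36*, *DUSP2*, and *JUNB*. *EGR1* differed by 3.44 in batch 1 and 2.76 in batch 2 (log2). Its adjusted *P* value in batch 2 was 0.213 with all groups in the fit and 3.8e-05 once the 5-minute libraries, where *EGR1* ranged from 2.3 to 17.4 CPM, were left out, an alternative added after the data were seen.

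**Figure D5:**
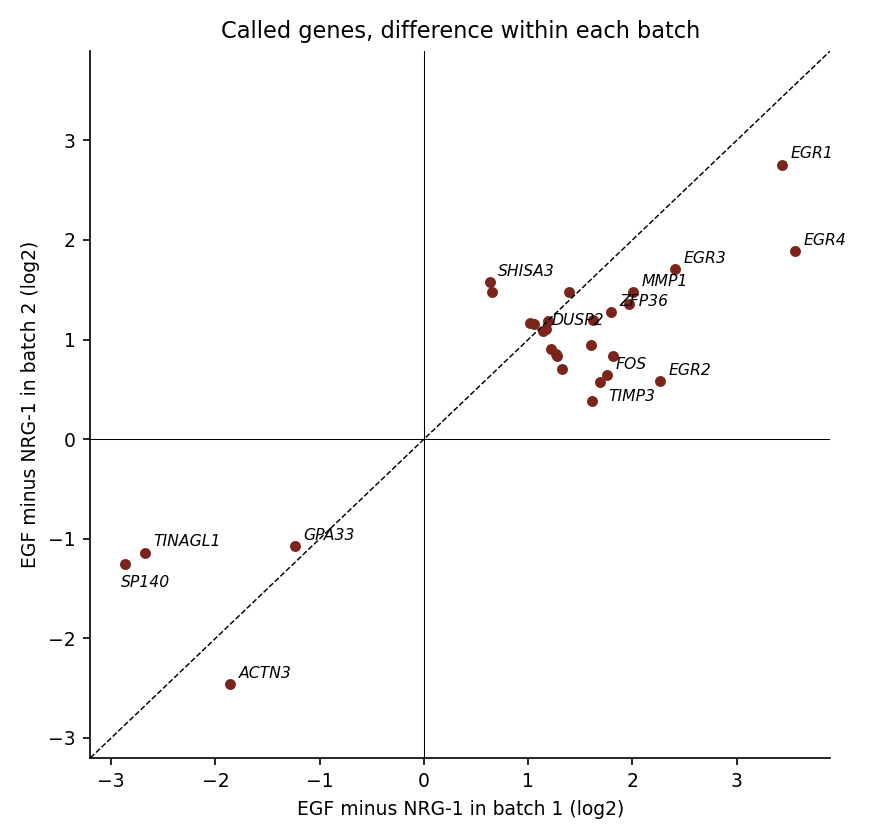
EGF minus NRG-1 at 4 hours within batch 1 (horizontal axis, log2) and within batch 2 (vertical axis, log2) for the 29 DEGs, 1 point per gene; the dashed line marks equal differences. All points lie in the upper right or lower left quadrant, and 20 of the 25 EGF-higher genes lie below the line. The genes were chosen from the libraries of both batches together.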

How the data were processed

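Polyadenylated RNA from LNCaP cells was sequenced in 8 groups of 4 libraries. Per the labels and methods, the authors trimmed reads with Trimmomatic 0.36 and estimated gene values with RSEM around STAR 2.7.0f in stranded mode; the submitters' notes name hg19. The labels and the methods name different library kits, both strand-specific. The authors deposited expected counts per gene and library, not normalized, and TPM, scaled by transcript length and library total; replicates were not pooled. The annotation was not given in the sources used here, so no coordinates of genes were taken from the files.

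Expected counts were rounded (11.2% of values were not whole). A gene was tested if 3 or more libraries held 5 or more of its counts, which left 16995 of 25498. edgeR 4.0.16 (R 4.3.3) was fitted to all 32 libraries with TMM normalization and terms for group and batch, and quasi-likelihood tests were adjusted by the Benjamini-Hochberg method. DEGs were genes whose adjusted *P* value was under 0.05 and whose change exceeded 1 on the log2 scale. No library was under 1000000 counts. RSEM divides reads shared between similar genes, so values of close paralogs carry that uncertainty. The fit was also tested on counts simulated from these libraries.

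Alternatives were DESeq2 1.42.0, limma 3.58.1 on log2 TPM with pseudocounts of 1 and 0.1, other filters, batches alone, a replicate block, and leaving out each library. Replicates of a group are labeled biological replicates, and each pair differed by more than sampling noise (chi-square per gene 6.60 to 222 over 12 pairs). Libraries with the same replicate number deviated together between the ligands (r = 0.314, 0.211, 0.300, and 0.377; 0.0366 to 0.246 after batch means were removed), so blocked values are given where they change a result. Intervals of ratios cover counting error only.

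The named genes were the DEGs; of genes within 2-fold, the 6 with the smallest *P* value in each direction among those averaging 1 or more in log2 CPM whose sign matched between batches; up to 5 members of each of 15 lists by *P* value; the 4 ERBB receptors; and the 2 genes with the largest change over time in each direction. The genes, lists, and comparison were chosen with earlier results of these data known. Promoters came from a RefSeq table of GRCh38.p14.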

Additional observations from a re-analysis of the deposited data

Results flagged for a closer look

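For 21 results the values stood apart by a fixed rule, and 19 of these were genes whose EGF-minus-NRG-1 difference at 4 hours differed from that at 1 hour in edgeR (adjusted *P* value below 0.05). The change was upward for *EGR1* (3.14, log2), *ZFP36* (1.31), *JUNB* (1.16), *DUSP6* (1.05), *EGR3* (0.93), *KITLG* (0.92), *IER2* (0.86), *KLF10* (0.61), *TXNIP* (0.52), and *ELL2* (0.46). It was downward for *FOSB* (-2.05), *C8orf4* (-1.68), *TINAGL1* (-1.60), *TUFT1* (-1.23), *ERRFI1* (-0.88), *GCNT1* (-0.82), *PALMD* (-0.70), *KLHL24* (-0.66), and *INSIG1* (-0.48). For *TXNIP* the upward change is a smaller NRG-1 excess, since its difference was -0.98 at 1 hour and -0.46 at 4 hours. For *TUFT1* the sign turned, from 0.73 at 1 hour to -0.50 at 4 hours.

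In 2 groups 1 library stood far from the other 3 by Dixon's criterion. *FAIM2* was at 0.551 CPM in EGF library 4, and the others were at 0.353 to 0.385 CPM. *TUFT1* was at 54.8 CPM in NRG-1 library 4, and the others were at 51.6 to 52.0 CPM. Of 128 groups examined, about 6 would be marked by chance.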

How the results depend on the processing

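Against 29 DEGs, other settings gave 10 (a strict filter of 10 counts in each library), 12 (batch term dropped), 18 (only the 2 groups), 49 (batch 1), 4 (batch 2), 5 (batch 2 without the 5-minute libraries), 9 and 13 (limma on TPM, pseudocounts 1 and 0.1), 9 (no filter on TPM), and 74 (a fold limit of 1.5). A replicate block gave 39, including all 29, DESeq2 gave 27, with 25 shared, and leaving out the 5-minute libraries, chosen after the data were seen, gave 24, with 23 shared. EGF was higher for 86.2% of DEGs, for 100% in the strict filter, without a batch term, in the 2 groups alone, in batch 2, and on TPM, and for 93.9% in batch 1. The 4 NRG-1-higher DEGs were too scarce to be tested under the strict filter or on TPM with its filter. The 100% in those settings therefore could not include them. The 282 genes at any fold became 482 with DESeq2, 69 without a batch term, 810 with the replicate block, 142 in the 2 groups, 8 in batch 2 (12 without the 5-minute libraries), and 120 and 87 on TPM. Without 1 library, DEGs numbered 15 to 38 (15 without EGF library 1 and 18 without EGF library 2) and genes at any fold 116 to 276 (116 and 138 without the same libraries, 184 and 165 without NRG-1 libraries 3 and 4). DEGs against CSS numbered 1625 with EGF, 833 under the strict filter, 411, 740, and 411 on TPM, and 1504 to 1692 without 1 library. With NRG-1 there were 1260, then 587, 836 in batch 2, 305, 555, and 300 on TPM, and 1181 to 1285. The 29 DEGs at 1 hour became 13 under the strict filter, 4 in batch 2 (6 without the 5-minute libraries), 18 and 18 on TPM, and 22 to 30 without 1 library. The 14 genes that changed between 1 and 4 hours became 8 without a batch term, 29 in batch 1, 0 in batch 2 (1 without the 5-minute libraries), and 9 to 16 without 1 library, 9 without EGF 1-hour library 1. The cause of these shifts was not tested. Signs turned for *ERBB2* in batch 1 (-0.0013), *ERBB3* in batch 2 (0.0254, also 0.0254 without the 5-minute libraries), *FOSB* in batch 1 (0.0870), and *C8orf4* in batch 1 (0.0135), each far from the threshold. The replicate block moved *EGFR*, *WDR43*, and *SLC3A2* past the threshold and changed no other call of a named gene. *EGR3*, *ARC*, *ZFP36*, *DUSP2*, and *JUNB* were the 5 DEGs past the adjusted *P* threshold under every alternative that gave them a value. Counts under about 100 per group limit the scarcest genes, and total counts are given beside some of them.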
